A study of Danio rerio with 18 samples.

Results

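After liver injury by thioacetamide (TAA), endothelial cells (ECs) and hepatocytes (HEPs) shared most of their accessible chromatin, and what still set them apart lay for the most part among weak peaks. The EC TAA peak list was compared with the HEP TAA peak list. A peak with no overlap of at least 1 bp in the other list was called specific, and any other peak was called shared. Merging both lists gave 60602 accessible regions, of 92012 regions over all 6 lists of the study. Of these, 37987 regions (62.7%) were in both TAA lists, 16176 (26.7%) only in that of ECs and 6439 (10.6%) only in that of HEPs.

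The lists came from ATAC-seq of liver cells that had been sorted by fluorescence from adult female zebrafish in an AB background. ECs were mCherry-positive cells of Tg(kdrl:ras-mCherry) fish, HEPs were dsRed-positive cells of Tg(fabp10a:dsRed) fish, and hepatic stellate cells (HSCs) were EGFP-positive cells of Tg(hand2:EGFP) fish. Fish received TAA at 500 mg/kg into the abdomen, 6 times in 2 weeks, or a control injection. The study gives the control as sterile water in one place and as saline in others. Each of the 6 groups had 3 libraries of 60000 sorted cells, combined by the authors into 1 peak list, so no value below has a replicate error or a p-value, and the libraries are not known to come from separate fish. Because each cell type came from its own line and was sorted by the transgene that marks it, cell type and transgenic line cannot be told apart. Gene positions on the build of the lists (GRCz11) were not used here, so cell identity was not checked against marker genes and no peak is assigned to a gene.

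In ATAC-seq a transposase cuts DNA that is free of nucleosomes, so that peaks mark promoters, enhancers and other regulatory sites. Promoters of widely used genes tend to be open in many cell types, whereas enhancers are more often restricted to a few. Hepatocytes carry out the metabolic work of the liver and turn TAA into its toxic form, and endothelial cells line the sinusoids, where they face both the blood and the stellate cells that lay down matrix after injury.

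The EC TAA list held 54209 peaks over 10.8 Mb and the HEP TAA list 44649 peaks over 8.26 Mb. The score of a peak rises with its statistical strength and with sequencing depth. Its median was 439 in EC TAA and 329 in HEP TAA, and 414 EC peaks but 2 HEP peaks had the highest score that occurs. Depth is unknown from the lists, so a score served only to order the peaks of its own list. The EC control list stood apart from the rest of the study. Its Jaccard index, the base pairs in both lists divided by those in either, lay between 0.291 (with EC TAA) and 0.377 (with HSC control), while the 10 pairs that leave it out lay between 0.546 and 0.697. The main results that use the EC control list are therefore given beside the same measure for HSCs with HEPs, which does not. That pair leaves out ECs altogether, so it cannot tell a trait of the EC control list from a trait of ECs.

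Of the EC TAA peaks, 16176 were EC-specific, which is 29.8% (95% Wilson interval 29.5 to 30.2), and of the HEP TAA peaks 6439 were HEP-specific, which is 14.4% (14.1 to 14.8). These intervals cover counting error over peaks only, and since peaks are not replicates they say nothing of the spread between fish. EC-specific peaks covered 2.39 Mb and HEP-specific peaks 0.970 Mb, and there were 2.51 times as many of the first kind. This imbalance followed the length of the lists. With the EC TAA list reduced to its best 44649 peaks, the specific share was 20.3% in ECs and 19.9% in HEPs. At equal length the counts of the 2 classes can differ only where 1 peak meets several, so neither cell type had an excess of its own regions that is separable from list length.

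The overlap rule separated the classes cleanly. Over 38256 overlapping pairs the median overlap was 172 bp, and in 96.1% of pairs it took up at least 50% of both peaks. Just inside the rule, 4 pairs overlapped by less than 10 bp. Just outside it, 2 EC-specific peaks and 1 HEP-specific peak lay less than 10 bp from a peak of the other list. Shared regions were also centred on the same place, with a median of 9 bp between the EC and the HEP summit and 92.6% of pairs within 50 bp.

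The same comparison in control fish showed larger differences. In control, 49.1% of EC peaks had no HEP peak and 36.9% of HEP peaks had no EC peak. The Jaccard index of ECs with HEPs was 0.585 after TAA (7.03 of 12.03 Mb) and 0.340 in control (4.60 of 13.5 Mb). The lower specific share after TAA held on 25 of 25 chromosomes for ECs and on 25 of 25 for HEPs. The control value rests on the EC control list that stood apart. In the pair of HSCs with HEPs, which does not use that list, the Jaccard index was 0.568 after TAA and 0.613 in control, the opposite order. The HSC list was the longer one in both states, and no value at equal length is given for that pair. EC TAA was about as similar to HEP control (0.572) as to HEP TAA (0.585). ECs were closer to HSCs than to HEPs after TAA, with a Jaccard index of 0.697. Of the EC TAA peaks 9.94% lacked a peak in HSC TAA, the longest list, and of the HSC TAA peaks 20.6% lacked one in EC TAA. At equal length within the pair these were 13.3% and 13.8%, with a Jaccard index of 0.719 against 0.611 for ECs with HEPs.

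Specific peaks were weak peaks. Each list was divided by score into 10 steps of equal size, with the strongest peaks in step 1. Among the strongest 10% of EC TAA peaks, 3 of 5421 (0.0553%) had no HEP peak, and among the strongest 10% of HEP TAA peaks 3 of 4465 (0.0672%) had no EC peak. At the weak end, 77.8% of the last 10% of EC peaks and 46.4% of the last 10% of HEP peaks were specific. In both lists the share grew at every step.

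**Figure D1:**
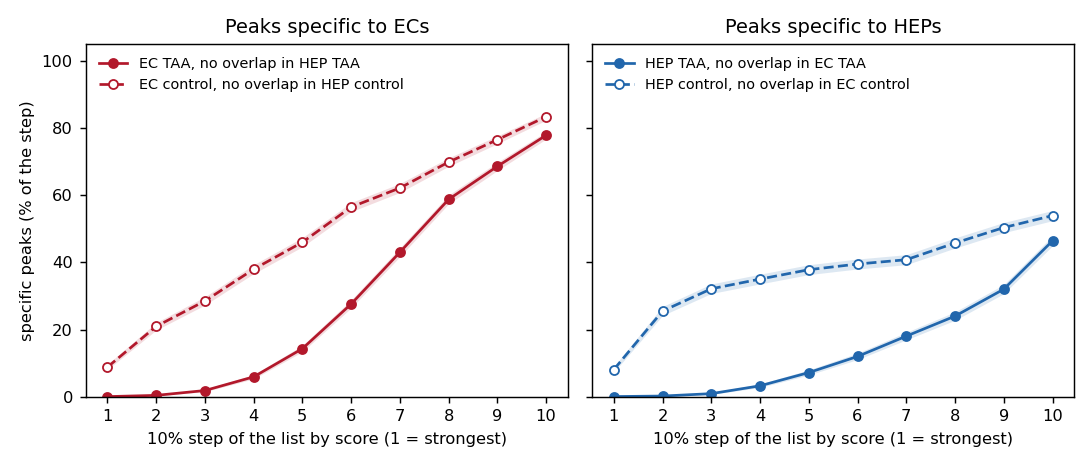
Percentage of peaks without an overlapping peak of the other cell type (y axis) in each 10% step of a list by score (x axis, 1 is the strongest), for ECs on the left and HEPs on the right. Filled points are TAA, open points control, and bands are 95% Wilson intervals. After TAA the curves start near 0% and reach 77.8% in ECs and 46.4% in HEPs, whereas in control, where both curves use the EC control list that stood apart, they start at 8.84% and 8.11%.

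Between ECs and HEPs, strong specific peaks were rarer after TAA than in control, a difference that rests on the EC control list. In step 1 of the control lists, 453 EC peaks (8.84%) and 337 HEP peaks (8.11%) were specific, against the 3 and 3 after TAA. Between HSCs and HEPs, without that list, step 1 held 3 specific HSC peaks and 2 specific HEP peaks after TAA, and 7 and 2 in control, so few were seen in either state. In step 10 the shares were nearer, at 77.8% after TAA and 83.4% in control for ECs, and at 46.4% after TAA and 53.9% in control for HEPs. The median score of EC-specific TAA peaks was 195, against 672 for shared EC peaks, and that of HEP-specific TAA peaks 157, against 389 for shared HEP peaks. Only 1226 EC-specific peaks (7.58%) and 523 HEP-specific peaks (8.12%) stood in the better 50% of their list. The part of sequencing depth in these weak differences was not tested.

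Shared regions were also compared by their rank in each list. Of the 5418 shared peaks among the strongest 10% of EC TAA, 3741 (69.0%) met a peak of the strongest 10% of HEP TAA, and 10 met only peaks of the lower 50%. Of the 4462 shared peaks among the strongest 10% of HEP TAA, 3742 (83.9%) met one of the strongest 10% of EC TAA, and 4 met only peaks of the lower 50%. A change from the strong end of one list to the weak end of the other was thus rare in either direction. The 69.0% and 83.9% count nearly the same pairs over steps of unequal size, 5421 EC and 4465 HEP peaks. Their difference therefore follows list length and does not set the cell types apart. Over all pairs, Spearman's rho of the ranks was 0.82, a description only, since all 38256 pairs come from the same 2 lists. When only the best 5000 peaks of each list were compared, 1133 EC peaks (22.7%) had no HEP peak among the best 5000 but only 3 had none in the whole HEP list, and for HEPs the counts were 1132 and 3. Counts at a fixed rank include peaks that lie just past it in the other list. The same count between the TAA and the control list of a single cell type was not computed.

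Specific peaks were narrow. Median width was 139 bp for EC-specific peaks against 204 bp for shared EC peaks, and 137 bp for HEP-specific peaks against 178 bp for shared HEP peaks. Of the EC-specific peaks 11.6% had the minimum width of 100 bp, against 1.03% of the shared ones, and of the HEP-specific peaks 15.8% did, against 3.94%. Among the widest peaks, of 500 bp or more, 9 of 358 were EC-specific and 0 of 116 were HEP-specific, a count that allows a share of up to 2.59%.

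Width moved with strength, and at matched strength the picture differed between the cell types. Within steps 3 to 10 of the EC list, EC-specific peaks were from 11 bp narrower to 3 bp wider than shared peaks, so little of the 65 bp gap was left. In the HEP list the gap of 41 bp turned round, and HEP-specific peaks were 1 bp to 33 bp wider than shared peaks of the same step in steps 3 to 10. In step 5, for example, the median was 206 bp for 322 HEP-specific peaks and 173 bp for 4143 shared ones. In the shared pairs the EC peak was the wider one in 82.2% and the HEP peak in 16.5%, with a median EC minus HEP width of 23 bp, beside the higher scores of the EC list.

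**Figure D2:**
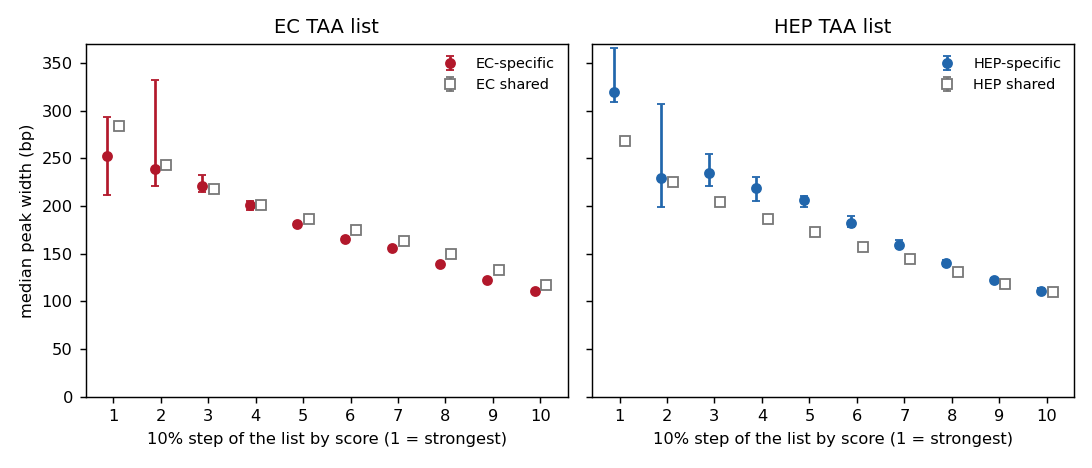
Median peak width in bp (y axis) in each 10% step of the list by score (x axis, 1 is the strongest) for specific peaks (filled circles) and shared peaks (open squares) of EC TAA on the left and HEP TAA on the right. Bars are 95% intervals of the median over peaks. Specific and shared peaks nearly coincide in ECs, while HEP-specific peaks lie above shared ones in the middle steps, 206 bp against 173 bp in step 5.

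The few strong exceptions could be listed. The 5 EC-specific peaks with the highest score were chr23:43392911-43393203, chr14:48328863-48329115, chr19:41199790-41200001, chr21:35900738-35900973 and chr6:29846311-29846546 (GRCz11). The first had a score of 2830 in EC TAA, rank 936 of its list, and the nearest HEP TAA peak was 31190 bp away, yet it was also open in HEP control (score 854), EC control (1639), HSC TAA (1315) and HSC control (1455). It was thus missing from the HEP TAA list alone. The peak on chromosome 19 behaved differently, since with a score of 2161 in EC TAA it was found otherwise only in HSC TAA (904) and in no control list. The peak on chromosome 21 was the most isolated of the 5, with 244364 bp to the nearest HEP TAA peak.

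The 5 strongest HEP-specific peaks were chr13:42811192-42811511, chr7:8413740-8414048, chr22:7672233-7672598, chr4:75511563-75511772 and chr4:73933714-73933914. The first, with a score of 1377 and rank 3011, was 320 bp wide and otherwise only a weak peak of HSC control (score 103). The peak on chromosome 7 (score 1311) was also open in HEP control (833) and both HSC lists (2211 after TAA and 3036 in control) but in neither EC list, so it set HEPs apart from ECs in both states. Among the strongest 20% of EC TAA there were 26 EC-specific peaks. Of these, 26 were also in HSC TAA, 20 in HSC control, 12 in EC control and 19 in HEP control. The strongest 20% of HEP TAA held 13 HEP-specific peaks. Of these, 8 were in HSC TAA, 11 in HSC control, 4 in EC control and 8 in HEP control. Of shared peaks in the better 50% of EC TAA, 99.8%, 98.7%, 67.5% and 96.3% were in these lists, in the same order. For shared peaks in the better 50% of HEP TAA the shares were 99.7%, 99.3%, 73.0% and 98.5%. Of the 13 HEP-specific peaks 5 lay on chromosome 4, and of the 26 EC-specific peaks 2 did. Over the whole lists, chromosome 4 held 1598 of 44649 HEP TAA peaks and 1918 of 54209 EC TAA peaks.

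To follow which differences remained after injury, each control peak that was specific between ECs and HEPs was looked up in both TAA lists. Few remained. Of the 25147 EC peaks specific in control, 1955 (7.77%) met an EC-specific TAA peak, and of the 15336 HEP peaks specific in control, 443 (2.89%) met a HEP-specific TAA peak. The order of these shares was not stable, since at equal list length they were 4.96% for ECs and 6.56% for HEPs. Between HSCs and HEPs the same measure was 33.1% for HSCs (5651 of 17087) and 7.003% for HEPs (226 of 3227). Those shares are given at full list length only.

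The other differences of the control state ended in opposite ways. EC control-specific regions were mostly absent after TAA, with 19408 (77.2%) in neither TAA list, 2044 (8.13%) in both, 1974 (7.85%) in EC TAA only and 1721 (6.84%) in HEP TAA only. HEP control-specific regions were mostly open in both cell types after TAA, with 11224 (73.2%) in both TAA lists, 442 (2.88%) in HEP TAA only, 2444 (15.9%) in EC TAA only and 1226 (7.99%) in neither. The contrast was widest among strong peaks. Of the 453 EC control-specific peaks in the strongest 10%, 396 were in neither TAA list, whereas 337 of 337 HEP control-specific peaks in the strongest 10% were in both. Both classes were defined against the EC control list that stood apart. The pattern was not seen between HSCs and HEPs, a pair that leaves out ECs as well as that list. That pair therefore cannot tell a trait of the list from a response of ECs to TAA. Of control peaks specific between HSCs and HEPs, 31.2% of those of HSCs and 36.1% of those of HEPs were in neither TAA list of that pair, and 27.7% and 24.0% were in both. Of EC control peaks shared with HEP control, 81.9% were in both TAA lists, 4.002% in EC TAA only and 9.69% in HEP TAA only.

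**Figure D3:**
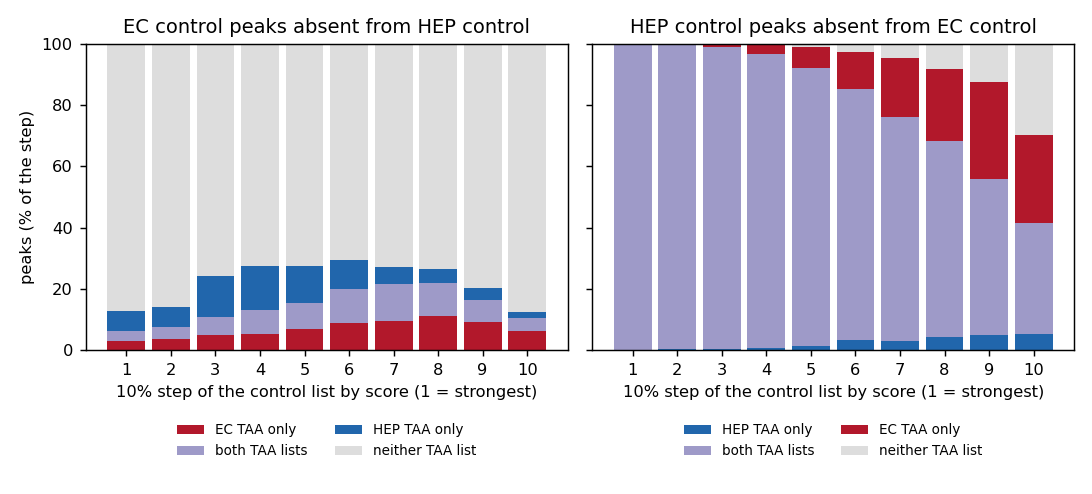
Share of control-specific peaks (y axis, % of the step) found in the TAA list of their own cell type only, in both TAA lists, in that of the other cell type only, or in neither, by 10% step of the control list (x axis, 1 is the strongest). EC control peaks without a HEP control peak are on the left, HEP control peaks without an EC control peak on the right. On the left 77.2% of all peaks are in neither TAA list, on the right 73.2% are in both. Both panels use the EC control list that stood apart.

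Seen from the TAA side, 1956 EC-specific peaks (12.1%) and 441 HEP-specific peaks (6.85%) set the cell types apart in both states, as judged with the EC control list. These lasting peaks lay on 25 chromosomes in both classes and were about as narrow as the rest, with median widths of 138 bp in ECs and 140 bp in HEPs. Those of HEPs ranked above other HEP-specific peaks, with 14.3% in the better 50% of the list against 7.67% and a median rank of 75.5% of the list length against 82.7%. This was not particular to lasting peaks, since HEP-specific peaks found in both control lists had a median rank of 72.3%. Those in EC control but not HEP control stood at 88.1%, and those in neither at 86.9%. For ECs the measures disagreed and were close, with 6.08% in the better 50% against 7.78% and a median rank of 78.6% against 79.7%. In HSC TAA were 78.0% of the lasting EC peaks against 69.7% of other EC-specific peaks, and 66.9% of the lasting HEP peaks against 41.9% of other HEP-specific peaks. Of the 5 strongest lasting EC peaks, 3 lay close together, at chr3:60038684-60038868, chr3:60075221-60075441 and chr3:60111090-60111257. In the 200 kb window chr3:60000001-60200000, picked like these peaks after the values were seen, 9 of 24 EC TAA peaks were EC-specific and 4 of the 9 were in EC control. Over the whole list, 29.8% of EC TAA peaks were EC-specific, and 18.8% of the EC-specific peaks were in EC control.

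Most TAA-state differences were thus not those of the control state, and the 2 classes differed in where else they were listed. Of the EC-specific TAA peaks 18.8% were in the EC control list, against 61.7% of shared EC peaks, and 21.5% in the HEP control list, against 85.7%. In neither of the control lists were 66.2%. Of the HEP-specific TAA peaks 66.5% were in the EC control list, against 61.6% of shared HEP peaks, and 46.3% in the HEP control list, against 85.6%. In both control lists were 39.4%, and in neither 26.7%. These classes differ in strength. Within the lower 50% of the HEP list, 65.6% of HEP-specific and 46.5% of shared peaks were in EC control, and 43.0% and 68.5% in HEP control. Within the better 50%, 76.9% and 73.0% were in EC control, and 83.6% and 98.5% in HEP control. Within the lower 50% of the EC list, 18.4% of EC-specific and 49.3% of shared peaks were in EC control, and 18.7% and 62.9% in HEP control. EC-specific peaks thus stood below shared peaks in both of these control lists, whereas HEP-specific peaks did so in HEP control only. For HEP-specific peaks, the higher share in EC control than in HEP control held in 4 of 5 settings of list length but turned round with the best 20000 peaks (40.2% in EC control and 46.9% in HEP control), and among those in the better 50% of the list it was 76.9% in EC control and 83.6% in HEP control. For EC-specific peaks in the better 50% of the list, 23.9% were in EC control and 55.5% in HEP control, against 67.5% and 96.3% of shared peaks there.

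The HSC lists, which do not involve the EC control list, also divided the 2 classes. Of the EC-specific peaks 70.7% were in HSC TAA and 42.8% in HSC control. Of the HEP-specific peaks 43.7% were in HSC TAA and 72.0% in HSC control. Peaks in HSC TAA but not in HSC control made up 33.0% of EC-specific and 9.50% of HEP-specific peaks, and peaks in HSC control but not in HSC TAA made up 5.08% of EC-specific and 37.9% of HEP-specific peaks. Regions that set injured ECs apart from injured HEPs were thus more often open in injured than in control HSCs, and regions that set injured HEPs apart were more often open in control than in injured HSCs. Both classes were defined by presence in or absence from EC TAA. That list had a higher Jaccard index with HSC TAA (0.697) than with HSC control (0.613). The HSC TAA list was also the longer one, with 61245 peaks against 55293. The part of either in this split was not tested. In the better 50% of the list the order held for EC-specific peaks, at 92.9% in HSC TAA and 70.8% in HSC control, and for HEP-specific peaks, at 76.9% in HSC TAA and 91.8% in HSC control. Shared peaks differed less between the HSC lists, since 98.3% of shared EC peaks were in HSC TAA and 94.5% in HSC control. Few specific peaks were in no other list of the study, 3366 of EC TAA (20.8% of its specific peaks) and 691 of HEP TAA (10.7%), and these stood near the end of their lists, at a median rank of 89.7% and 90.3% of the list length.

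**Figure D4:**
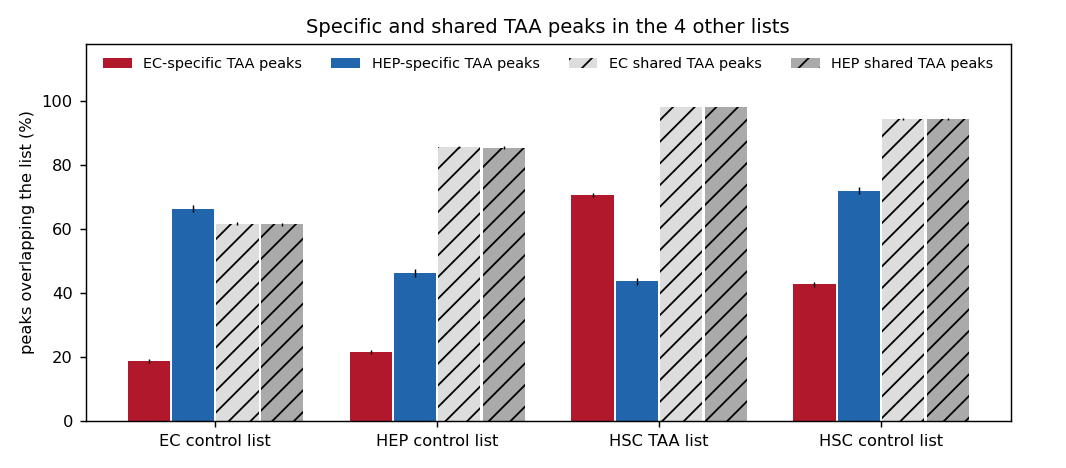
Percentage of TAA peaks of each class (y axis) that overlap the EC control, HEP control, HSC TAA and HSC control lists (x axis). Red bars are EC-specific, blue bars HEP-specific, hatched bars shared peaks of EC TAA (light) and HEP TAA (dark), and error bars are 95% Wilson intervals. EC-specific peaks are most often in HSC TAA (70.7%), HEP-specific peaks in HSC control (72.0%) and EC control (66.5%).

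Specific peaks were spread over the whole genome. The EC-specific share lay between 24.0% on chromosome 1 and 32.7% on chromosome 25, the HEP-specific share between 10.9% on chromosome 25 and 17.6% on chromosome 4. The EC share was the higher one on 25 of 25 chromosomes. The lists hold nearly the same number of shared peaks (38033 and 38210), so the longer list has the higher specific share by construction. At equal list length the shares over all chromosomes were 20.3% and 19.9%, and shares per chromosome were not computed at that length. Along chromosomes cut into 10 parts of equal length, the specific share stayed between 28.1% and 32.8% in ECs and between 12.9% and 16.1% in HEPs. Chromosome 4 was uneven. Beyond 30 Mb, a stretch of this chromosome known to be rich in repeats, 34.8% of EC peaks (131 of 376) and 33.8% of HEP peaks (126 of 373) were specific, against 29.8% and 14.3% in the rest of the genome. In the better 50% of the list the shares beyond 30 Mb and elsewhere were 8.403% and 4.51% in ECs and 13.3% and 2.272% in HEPs, and at equal list length 25.4% and 20.3% in ECs and 42.9% and 19.7% in HEPs. In the lower 50% of the list they were 47.1% and 55.2% in ECs, the opposite order, and 46.5% and 26.3% in HEPs. The HEP-specific share was thus higher there in both parts of the list. The EC-specific share was higher over all peaks and in the better 50% (10 of 119 peaks) but not in the lower 50%.

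**Figure D5:**
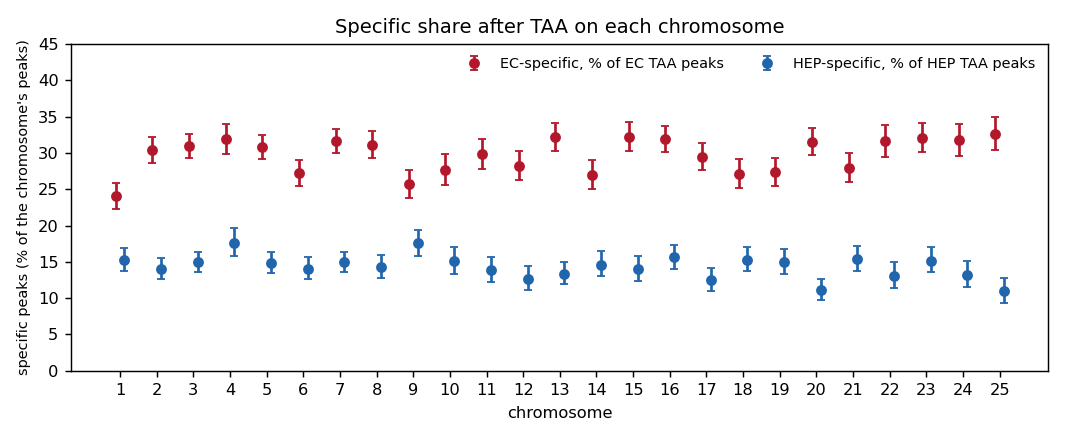
Specific peaks after TAA as a percentage of the peaks of each chromosome (y axis) for the 25 chromosomes (x axis), with 95% Wilson intervals. EC-specific shares (red) lie between 24.0% and 32.7%, above the HEP-specific shares (blue), which lie between 10.9% and 17.6%. The EC list is the longer one, and at equal list length the shares over all chromosomes are 20.3% and 19.9%.

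Specific peaks were seldom at the edge of a region open in the other cell type. The nearest HEP TAA peak was a median of 5799 bp from an EC-specific peak, with 12.5% closer than 500 bp and 5.83% beyond 50 kb. The nearest EC TAA peak was a median of 8161 bp from a HEP-specific peak, with 7.49% closer than 500 bp and 8.76% beyond 50 kb. HEP-specific peaks also stood alone within their own list, where 11.04% had another HEP TAA peak within 1 kb against 20.1% of shared HEP peaks. EC-specific peaks did not, at 24.3% against 24.8%.

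EC-specific peaks often had another within the same 100 kb, HEP-specific peaks less often. Of the 7597 windows of 100 kb with an EC-specific peak 44.5% held a single one, with a median of 2, and of the 4291 such windows for HEPs, which had fewer specific peaks in all, 66.2% held a single one. The windows and runs named here were picked for their high counts. The densest EC window was chr1:52500001-52600000, where 15 of 27 EC TAA peaks were specific, 9 of them open in HSC TAA and 1 in EC control. HEP TAA had 12 peaks in that window and HEP control 17. On chromosome 15 between 10000001 and 11000000, 19 of 21 EC TAA peaks were specific, against 2 HEP TAA peaks in all, and 12 of them followed each other over 397 kb. Of these 19, 14 were in HSC TAA and 0 in EC control. HEP control had 10 peaks in this stretch, EC control 4 and HSC control 4. Over all EC-specific peaks, 70.7% were in HSC TAA and 18.8% in EC control. The densest HEP window was chr16:38000001-38100000, where all 10 HEP TAA peaks were specific and EC TAA had 0 peaks. EC control had 9 peaks there, HSC control 10, HEP control 6 and HSC TAA 7. In chr13:4500001-4600000, 8 of 8 HEP TAA peaks were specific, and 8 of these 8 were in EC control and 6 in HEP control. HSC TAA had 5 peaks in that window. The longest HEP run was 10 peaks over 527 kb of chromosome 7, with 7 of 10 in EC control, 9 in HSC control and 6 in HEP control. Over all HEP-specific peaks the shares in these lists were 66.5%, 72.0% and 46.3%. HSC TAA had 8 peaks along that run.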

How the data were processed

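ATAC-seq libraries were grouped by their labels (6 groups of 3). According to the submitters' processing notes and the study's methods, the authors checked reads with FastQC 0.11.8, trimmed them with cutadapt 1.18, aligned them to GRCz11 with Bowtie2 2.3.4.3, kept short fragments and shifted read ends for the transposase. MACS2 2.1.0.2 gave a p-value track per library, which the authors combined within a group and adjusted, and low-complexity peaks were discarded. The deposited score is the authors' q-value as a negative log10, multiplied by 10 and capped; the weakest peak had a q-value of 6.31e-06 in EC TAA and 1e-05 in HEP TAA. Fold, p and q columns hold only 0. The lists carry no counts, so depth and precision per library are unknown.

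Overlaps, ranks, widths and distances were computed with Python 3.11.15, numpy 2.4.6 and pandas 2.3.3, checked on simulated lists. Wilson intervals (95%) cover counting error over peaks, and a count of 0 is limited by 3 counts. No test was run. Named regions are the 5 highest-scored specific peaks of each list. Members and lists were chosen with earlier results of these data known. Alternatives were list length, score threshold and overlap rule. Distances to start sites, genes, marker genes, motifs and sequences were not analysed here, since no annotation on GRCz11 was used.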

Additional observations from a re-analysis of the deposited data

How the results depend on the processing

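No paired analysis was possible because each group has 1 combined list, and no library could be left out for the same reason. Over 13 results, 83 alternative values were computed, of which 62 moved and 2 reversed. The cause was not tested beyond what each setting itself changes. Start sites within 3 kb were not run. With equal length within each pair, the EC-specific share was 20.3% and the HEP-specific share 19.9%, the Jaccard index 0.611, the difference kept 4.96% in ECs and 6.56% in HEPs, and the width difference between specific and shared peaks -54 bp in ECs and -47 bp in HEPs. With the best 20000 peaks these were 17.6% and 17.5%, 0.650, 2.31% and 9.08%, and -30 bp and -37 bp. With the best 41563 peaks (the shortest list, a setting added after the data were seen) they were 19.4% and 18.96%, 0.620, and 4.45% and 7.07%, with -49 bp in ECs. With the better 50% of each list they were 26.6% and 10.7%, 0.625, 6.60% and 3.97%, and -40 bp and -29 bp. The better 50% against the whole other list gave 4.52% and 2.34%, 5.29% and 0.677% kept, and -37 bp in ECs, and the HEP width difference reversed to 1.0 bp. It reversed to 20.25 bp as the median over steps 3 to 10, an added setting, which gave -6.75 bp in ECs. Overlap of at least 50% of both peaks gave specific shares of 32.2% and 17.6%, 8.58% and 8.84% kept and -61 bp in ECs. No other peak within 500 bp gave 26.1% and 13.3%, 7.07% kept in ECs and -61 bp in ECs. A summit inside the other peak gave 30.3% in ECs. All peaks lay on the 25 numbered chromosomes, so that setting changed nothing. With lists of equal length both specific shares are tied by construction. The share kept was higher in ECs in 6 of 10 settings, which count the main setting and its unchanged repeat on the 25 numbered chromosomes separately. It was higher in HEPs at equal length, with the best 20000 or 41563 peaks, and with overlap of at least 50% of both peaks.

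The following were added after the data were seen. For EC-specific peaks in EC control, HEP control and HSC TAA, main values of 18.8%, 21.5% and 70.7% became 17.1% and 29.2% in both control lists at equal length, 15.3%, 38.8% and 52.5% with the best 20000 peaks, 19.98%, 24.0% and 73.4% with the better 50% of each list, and 34.8% in HEP control and 56.0% in HSC TAA with the best 41563. For HEP-specific peaks, main values of 66.5%, 46.3% and 43.7% became 54.5% in EC control at equal length, 40.2% in EC control and 37.6% in HSC TAA with the best 20000 peaks, 45.2%, 32.6% and 53.1% with the better 50% of each list, and 54.6%, 51.4% and 28.2% with the best 41563. Weak peaks make up most of both specific classes, and the part of sequencing depth was not tested.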
